A study of Rattus norvegicus with 12 samples.

Results

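The cytochrome P450 genes of families 1 to 3, the main drug-metabolising monooxygenases of the liver, were followed in rats with diet-induced fatty liver that were or were not given didymin, a flavonoid glycoside of citrus. Members were all genes whose name in any of the 3 deposited count tables began with Cyp1, Cyp2 or Cyp3 and a subfamily letter, apart from 1 gene that the choice left out. That gave 31 of 16558 genes, in 15 subfamilies. Bulk RNA was sequenced from the livers of Sprague Dawley rats in 12 libraries of 4 groups of 3. The didymin rats were fed the high-fat diet and given didymin, and they form 2 dose arms, called arm D and arm G after the letters of their columns, since no label pairs a letter with a dose. The model rats received the high-fat diet without didymin, and the normal rats received saline. The diet ran for 8 weeks, and the labels give neither sex nor age of the rats. Libraries are named by the letter and number of their columns, as D.1, D.4 and D.7 (arm D), G.1, G.3 and G.4 (arm G), M.5, M.6 and M2.1 (model) and N.1, N.2 and N.3 (normal), and values of a group are given in that order.

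Cytochrome P450 enzymes are haem proteins of the smooth endoplasmic reticulum that insert an oxygen atom into lipophilic substrates, with electrons passed on by the reductase Por and, for some reactions, by cytochrome b5. Their genes are switched on by ligand-activated receptors: the aryl hydrocarbon receptor drives the Cyp1 family, and the constitutive androstane receptor and the pregnane X receptor drive members of Cyp2b, Cyp2c and Cyp3a. In the rat, several Cyp2c and Cyp3a genes also differ between male and female liver under the pattern of growth hormone secretion.

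Library totals lay between 12469914 and 15521648 counts. The 13 protein-coding genes of the mitochondrial genome took 3.85% to 18.8% of the counts in 10 libraries, but 61.0% in G.3 and 44.1% in M.6, so that these libraries had 4869054 and 7173229 counts from nuclear genes, against 10887482 to 14761817 in the others. The summed level of 10 hepatocyte markers, such as albumin, was lowest in the same libraries. It ranged from 155433 to 161932 CPM (counts scaled to a common library size by the TMM method) in arm D, from 49075 to 174611 CPM in arm G, from 79740 to 164564 CPM in the model and from 168648 to 207036 CPM in normal livers. All 10 markers were detected. The library M2.1 is named unlike the other model libraries, and the labels do not say why. In bulk tissue, fewer cells of a type and less RNA per cell cannot be told apart. Neither labels nor columns say which animal a library came from, so each p-value measures the spread between these libraries, which may be technical.

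Reads of the 31 members made up 1.70% to 2.52% of the nuclear reads, and Cyp2c, Cyp2e, Cyp3a and Cyp2d genes held most of them in every library. The members took 2.51%, 2.02% and 1.96% of nuclear counts in arm D, 2.52%, 2.01% and 1.89% in arm G, 1.90%, 1.88% and 2.15% in the model, and 1.70%, 1.72% and 1.91% in normal livers. All arm D libraries lay above all normal libraries, and every other pair of groups overlapped. Of the member reads, the 7 Cyp2c genes took between 28.3% and 42.4% per library (median 35.7%), Cyp2e1 alone 13.7% to 25.4% (median 18.5%), the 4 Cyp3a genes 13.8% to 24.3% (median 18.1%) and the 4 Cyp2d genes 12.1% to 20.3% (median 16.2%). Cyp2a1 took 4.0% to 8.02%, the Cyp1a pair 0.606% to 4.67% and the 4 Cyp2b genes 0.675% to 1.97%. These are shares of reads and not of transcripts, because no usable length scale was at hand.

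**Figure D1:**
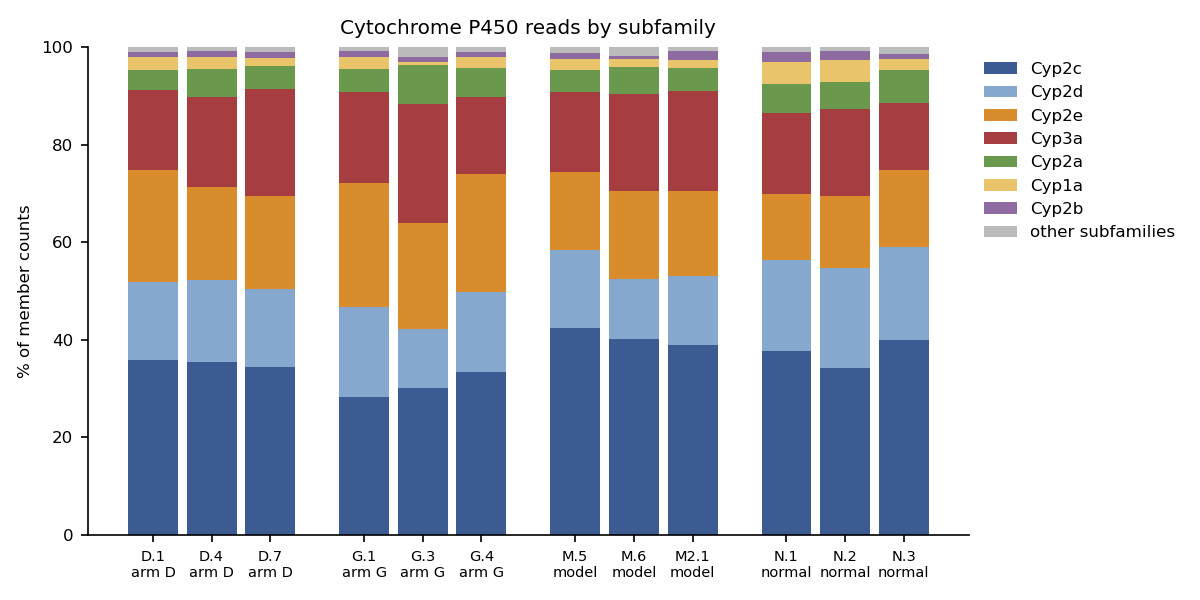
Stacked bars give, for each of the 12 libraries, the percent of all member counts that fell to each subfamily; the other subfamilies are summed in grey. The Cyp2e segment, which is Cyp2e1 alone, is widest in the didymin arms, at 19.1% to 25.4%, against 15.9% to 17.9% in the model and 13.7% to 15.8% in normal livers.

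Of the 31 members, 25 had enough counts to be tested together with the other genes that passed the same filter, 12355 in all. The 6 others were Cyp1b1 with 68 counts over the 12 libraries, Cyp2c24 with 48, Cyp2c7 with 3, Cyp2b12 and Cyp2b21 with 2 each, and Cyp2ab1 with 1. The pooled within-group SD of log2 CPM had a median of 0.57 over the 25 members and of 0.50 over all tested genes. Cyp3a2 was the most variable member at 1.92, above 99.8% of tested genes, and was followed by Cyp2b2 at 1.18 and Cyp1a2 at 0.95. Cyp2a1 at 0.18 and Cyp3a23/3a1 at 0.28 varied least.

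The first comparison asks how the high-fat diet altered these genes. In model livers Cyp3a23/3a1 and Cyp2f4 lay above, and Cyp1a2, Cyp2a1, Cyp2d1, Cyp2d2 and Cyp2d4 below, every normal library. No member passed an adjusted p of 0.05 by edgeR's quasi-likelihood test with Benjamini-Hochberg adjustment (smallest adjusted p = 0.866), and neither did any of the 12355 genes (0%). At an unadjusted p under 0.05 there was 1 higher member, Cyp3a23/3a1, and there were 2 lower members, Cyp2d4 and Cyp2r1, beside 4.91% of all tested genes. The 2 members above and 5 members below all normal libraries stand beside 5.25% and 5.29% of all tested genes. Log2 fold changes were positive for 9 and negative for 16 of 25 members, with a median of -0.20 against 0.03 over all tested genes. The median ranged from -0.34 to -0.061 as single libraries were left out. All 10 hepatocyte markers also had negative values in this comparison, with a median of -0.54.

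Comparisons of the didymin arms with the model ask what the compound altered on the same diet. Both use the same 3 model libraries, as does the comparison of model with normal livers, so their values are not independent of each other. In arm D, Cyp2e1 was the 1 member above every model library (5.93% of all tested genes were) and 0 members lay below every model library (6.71%). In arm G, Cyp2a1 was the 1 member above every model library (2.61%) and 0 lay below (2.09%). By the edgeR quasi-likelihood test, 0 members passed the adjusted threshold in either arm (0% of all genes in each), and 0 had an unadjusted p under 0.05, beside 6.28% of all tested genes in arm D and 2.32% in arm G. DESeq2 called 0 members at the adjusted threshold in both arms, beside 14 of 12355 tested genes in arm D and 5 in arm G. It gave an unadjusted p under 0.05 to 0 members in arm D and 2 in arm G, beside 985 and 401 tested genes. The median log2 fold change of the 25 members was 0.19 in arm D (18 positive and 7 negative; -0.04 over all genes) and -0.01 in arm G (12 positive and 13 negative; 0.00 over all genes). Neither median kept its sign when single libraries were left out, with ranges of -0.012 to 0.28 in arm D, where it was below 0 without D.1 or M.6, and -0.26 to 0.14 in arm G.

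Set against normal livers, both arms held Cyp3a23/3a1 above and Cyp2d4 below every normal library. Arm D had 3 members above all normal libraries, Cyp2c22, Cyp2e1 and Cyp3a23/3a1 (8.58% of all tested genes), and 1 below, Cyp2d4 (8.17%). Arm G had 2 above, Cyp2f4 and Cyp3a23/3a1 (5.51%), and 3 below, Cyp2d4, Cyp2s1 and Cyp2t1 (5.05%). By edgeR 0 members passed the adjusted threshold in either comparison (0% of all genes). At an unadjusted p under 0.05 there was 1 member, higher in arm D (6.34% of all genes), and there were 2, both higher in arm G (6.59%). Between the arms, Cyp1a1 was the 1 member higher in all arm G than in all arm D libraries (4.08%) and 0 were lower (3.35%). There, 0 passed the adjusted threshold (0%) or an unadjusted p under 0.05 (3.42%), and the median member log2 fold change of arm G over arm D was -0.14 (0.087 without G.3). DESeq2 and limma-voom called 0 members at the adjusted threshold in all 6 comparisons. Of all 12355 tested genes, DESeq2 called 41 in model, 84 in arm D and 51 in arm G over normal livers, and 5 between the arms. Limma-voom called 0 of them in each comparison. At an unadjusted p under 0.05, DESeq2 counted 3 members in model, 1 in arm D and 3 in arm G over normal livers, and 0 between the arms. These stand beside 810, 965, 1098 and 616 of all tested genes. In the same order limma-voom counted 4, 1, 3 and 0 members, beside 531, 732, 522 and 200 of all tested genes.

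**Figure D2:**
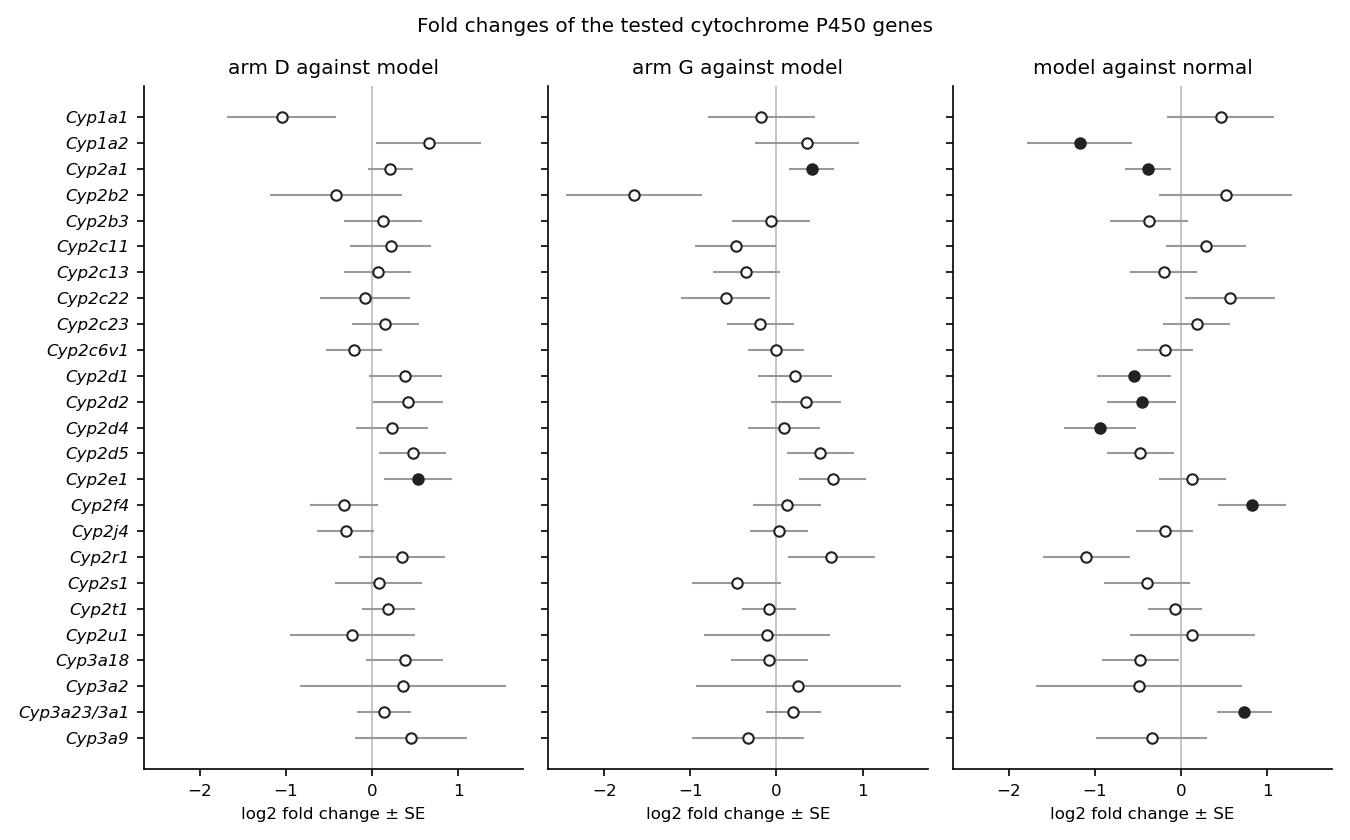
Points give the log2 fold change with its standard error for each of the 25 tested members, in arm D over model, arm G over model and model over normal livers; filled points mark members whose libraries did not overlap between the groups. The medians lie at 0.19, -0.01 and -0.20, and the filled points are Cyp2e1 in the first panel, Cyp2a1 in the second and 7 members in the third.

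The Cyp3a genes, whose products oxidise steroids and many drugs, include both the most variable member and one of the least variable. Cyp3a23/3a1, listed in the tables under this joint name, is the rat gene known for induction by dexamethasone through the pregnane X receptor. It had 2413, 1674 and 2002 CPM in arm D, 2290, 2384 and 1662 CPM in arm G, 1987, 2118 and 1429 CPM in the model, and 945, 1033 and 1339 CPM in normal livers. All 9 libraries of high-fat-fed rats lay above the 3 normal libraries, and the arms and the model overlapped. The share of all tested genes that split in this way was not computed. The log2 fold change was 0.74 ± 0.32 (SE) in model over normal livers (unadjusted p = 0.0385, edgeR). Over normal livers it was 0.88 ± 0.32 in arm D (edgeR adjusted p = 0.614) and 0.93 ± 0.32 in arm G (edgeR adjusted p = 0.723). Of the tools run, limma-voom with sample quality weights alone called it, in arm D over normal livers (log2 fold change 0.88, adjusted p = 0.0182), where it called 941 of all genes.

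Cyp3a2, a male-predominant rat gene whose product hydroxylates testosterone, had 218, 780 and 915 CPM in arm D, 1150, 66.2 and 563 CPM in arm G, 53.3, 44.4 and 1393 CPM in the model, and 926, 886 and 272 CPM in normal livers. The range was 31.4-fold over the 12 libraries, and both its highest and its lowest library belonged to the model. Its log2 fold changes were 0.36 ± 1.19 in arm D over model, 0.25 ± 1.19 in arm G over model and -0.48 ± 1.20 in model over normal livers (SE, edgeR). Without M2.1 the same fit gave 3.71 in arm D over model (adjusted p = 0.318), 3.61 in arm G over model (adjusted p = 0.751) and -3.84 in model over normal livers (adjusted p = 0.170), and without M.5 or M.6 all 3 changed sign.

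Cyp3a2 and Cyp3a23/3a1 also went different ways across libraries. For every 100 counts of Cyp3a23/3a1 there were 9.05, 46.6 and 45.7 counts of Cyp3a2 in arm D, 50.2, 2.78 and 33.8 in arm G, 2.68, 2.09 and 97.5 in the model, and 98, 85.8 and 20.3 in normal livers. This ratio is taken within each library and does not depend on library scaling. In each of the 4 groups the library with the highest mitochondrial share, D.1, G.3, M.6 and N.3, had the lowest Cyp3a2 and the highest Cyp3a23/3a1 of its group. Over the 12 libraries, log2 CPM of Cyp3a2 and the percent of mitochondrial counts gave Pearson's r = -0.82 (permutation p = 0.000500, adjusted p = 0.00625) and Spearman's rho = -0.83 (permutation p = 0.00131, adjusted p = 0.00856), two-sided and adjusted over the 25 members. Without G.3 and M.6, r was -0.95. For Cyp3a23/3a1, r was 0.53 (permutation p = 0.0617, adjusted p = 0.110) and rho was 0.71 (permutation p = 0.0132, adjusted p = 0.0550). Values were permuted over all 12 libraries without regard to group, so differences between groups enter these p-values.

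**Figure D3:**
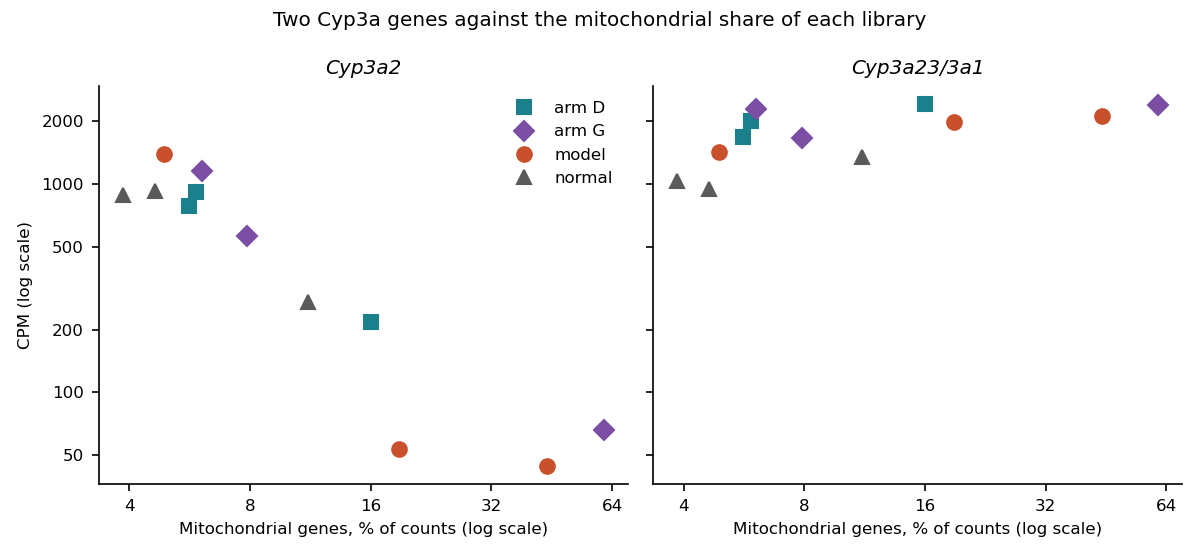
Each point is 1 library, with CPM of Cyp3a2 (left) or Cyp3a23/3a1 (right) against the percent of counts from mitochondrial genes, all on log axes; symbols mark arm D, arm G, model and normal livers. Cyp3a2 goes from 1393 CPM in M2.1, at 4.90% mitochondrial counts, to 44.4 CPM in M.6, at 44.1%. Cyp3a23/3a1 lies between 945 and 2413 CPM and is highest, in each of the 4 groups, in the library of highest mitochondrial share.

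The promoters of these genes are shown because the genes are close relatives with nearly the same upstream sequence and yet different levels across the libraries. In RefSeq's rat assembly GRCr8, 28 of the 31 members had a promoter sequence, which runs from 250 bases before to 50 bases after the gene's start. A direct repeat of AGTTCA with 3 bases between the copies (TGAACT when read on the other strand) is a form of repeat that the pregnane X receptor is known to bind with the retinoid X receptor. Searched on both strands, it occurred in 2 of 33469 promoters (0.00598%), those of Cyp3a2 and Cyp3a23-3a1, as RefSeq spells the joint gene. Its single repeat AGTTCA occurred in 14.5% of all promoters and in those of 7 members. The search allowed only this exact sequence in both copies. The 2 promoters are close relatives, so their matches are not independent of each other. No number of matches to be met by accident was computed. The match describes letters and is not evidence of binding. Below are bases -250 to -51 of each promoter, 5′ to 3′ on the minus strand, at chr12:14343908-14344107 for Cyp3a2 and chr12:14398854-14399053 for Cyp3a23-3a1, with the repeat in capitals.
Cyp3a2: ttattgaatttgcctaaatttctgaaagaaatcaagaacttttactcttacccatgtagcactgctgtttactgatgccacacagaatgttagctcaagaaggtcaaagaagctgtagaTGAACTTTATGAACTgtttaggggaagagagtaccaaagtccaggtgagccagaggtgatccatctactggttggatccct
Cyp3a23-3a1: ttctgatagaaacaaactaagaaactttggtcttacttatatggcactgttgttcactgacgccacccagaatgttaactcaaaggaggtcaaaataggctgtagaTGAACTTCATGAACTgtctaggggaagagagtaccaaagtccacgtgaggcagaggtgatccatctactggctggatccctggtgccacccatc
The repeat lay at -131 to -117 in Cyp3a2 and at -144 to -130 in Cyp3a23-3a1. The copies differed by T8C, counted from 1 at the 5′ end of the printed repeat with the base of Cyp3a2 first, which falls in the spacer. The aligned promoters of the pair were 89.3% identical over 281 bases, against 62.0% to 66.7% for the other pairs of Cyp3a promoters.

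The other Cyp3a genes were Cyp3a18, male-predominant in rat liver, and Cyp3a9, female-predominant. Cyp3a18 had 850, 517 and 534 CPM in arm D, 712, 224 and 441 CPM in arm G, 560, 239 and 660 CPM in the model, and 650, 685 and 689 CPM in normal livers, with G.3 and M.6 lowest. Cyp3a9 had 168, 55.6 and 55.2 CPM in arm D, 63, 27.6 and 71.4 CPM in arm G, 137, 21.8 and 45.4 CPM in the model, and 50.5, 83.6 and 124 CPM in normal livers, again with G.3 and M.6 lowest and with overlap between all groups. Genes of 1 subfamily are similar enough to share reads, and no source used here says how the authors counted such reads. The sum of the 4 Cyp3a genes does not depend on how reads were divided among these 4, although it can depend on reads that were dropped or given to other genes. Its log2 fold change in model over normal livers was 0.18 (edgeR adjusted p = 0.907). Of the summed counts of the subfamilies, 0 passed the adjusted threshold in any of the 6 comparisons.

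Cyp2e1, the ethanol-inducible enzyme that also oxidises acetone and fatty acids, lay higher in the didymin arms than in the model in 5 of 6 arm libraries. It had 5098, 3165 and 3054 CPM in arm D, 5717, 2410 and 4152 CPM in arm G, 2653, 2174 and 2984 CPM in the model, and 2130, 2240 and 2760 CPM in normal livers. G.3 was the arm library that lay within the range of the model. Log2 fold changes were 0.53 ± 0.39 in arm D over model and 0.65 ± 0.39 in arm G over model (SE; edgeR, adjusted p = 0.829 and 0.9997). Over normal livers they were 0.67 ± 0.39 in arm D and 0.78 ± 0.39 in arm G (edgeR, unadjusted p = 0.113 and 0.0674). Without D.1 the arm D values were 0.26 over model and 0.39 over normal livers, and without G.1 the arm G values were 0.33 over model and 0.46 over normal livers. As a share of the member reads, a measure looked at after the levels had been seen, Cyp2e1 took 23.0%, 19.2% and 19.1% in arm D, 25.4%, 21.7% and 24% in arm G, 15.9%, 17.9% and 17.4% in the model, and 13.7%, 14.8% and 15.8% in normal livers. On that measure, which needs no scaling between libraries, both arms lay above all model libraries, G.3 included, and the model lay above all normal libraries. The lowest model share was 15.9%, against a highest normal share of 15.8%. Cyp2e1 was picked from 15 subfamilies, and others also separated the model from normal livers in their shares. In the model, Cyp1a and Cyp2d lay below all normal libraries and Cyp2f above them. No test was made of these shares. The shares of all subfamilies add up to the whole, so a higher share of Cyp2e1 is a lower share of other members. The Cyp2c share lay below all model libraries in both arms.

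The Cyp1a genes are the aryl hydrocarbon receptor's targets, and Cyp1a2 is the member that hepatocytes express without an inducer. Cyp1a2 had 600, 402 and 265 CPM in arm D, 582, 65.3 and 381 CPM in arm G, 372, 178 and 254 CPM in the model, and 724, 688 and 402 CPM in normal livers. All model libraries lay below all normal libraries, and the arms overlapped both. Its log2 fold change was 0.66 ± 0.61 in arm D over model (0.32 without D.1), 0.36 ± 0.60 in arm G over model (-0.26 without G.1) and -1.17 ± 0.61 in model over normal livers (SE, edgeR), the last with an unadjusted p of 0.0782 and an adjusted p of 0.866. Cyp1a1, which is strongly inducible by dioxins and polycyclic aromatics, stayed near the limit of detection. It had 1.92, 0.80 and 0.67 CPM in arm D, 2.30, 1.93 and 1.94 CPM in arm G, 1.38, 4.77 and 0.92 CPM in the model, and 1.28, 2.28 and 1.49 CPM in normal livers. The log2 fold change of arm G over arm D was 0.87, and 1.47 without D.1. That of arm D over model was -1.05, -0.028 without M.6 and -1.65 without D.1. Cyp1b1, a member expressed mostly outside hepatocytes, had between 1 and 16 counts per library and was not tested.

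Cyp2b2 is known for induction by phenobarbital through the constitutive androstane receptor, and its relative Cyp2b3 is not inducible by phenobarbital. Cyp2b2 had 56.2, 14.1 and 7.81 CPM in arm D, 14.6, 8.96 and 9.42 CPM in arm G, 57.0, 11.4 and 35.8 CPM in the model, and 23.9, 6.43 and 42.4 CPM in normal livers. In arm D 1 library stood high, in the model and in normal livers 2 lay above every arm G library, and all groups overlapped. The log2 fold change of arm G over model was -1.66 ± 0.79 (SE; edgeR, unadjusted p = 0.0578, adjusted p = 0.9997). Cyp2b3 had 190, 196 and 190 CPM in arm D, 237, 113 and 156 CPM in arm G, 167, 70.2 and 291 CPM in the model, and 282, 263 and 138 CPM in normal livers. Like Cyp3a2 it was lower where the mitochondrial share was higher (n = 12, r = -0.78 with permutation p = 0.00628 and adjusted p = 0.0224, rho = -0.86 with permutation p = 0.000860 and adjusted p = 0.00856), and r was -0.60 without G.3 and M.6.

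**Figure D4:**
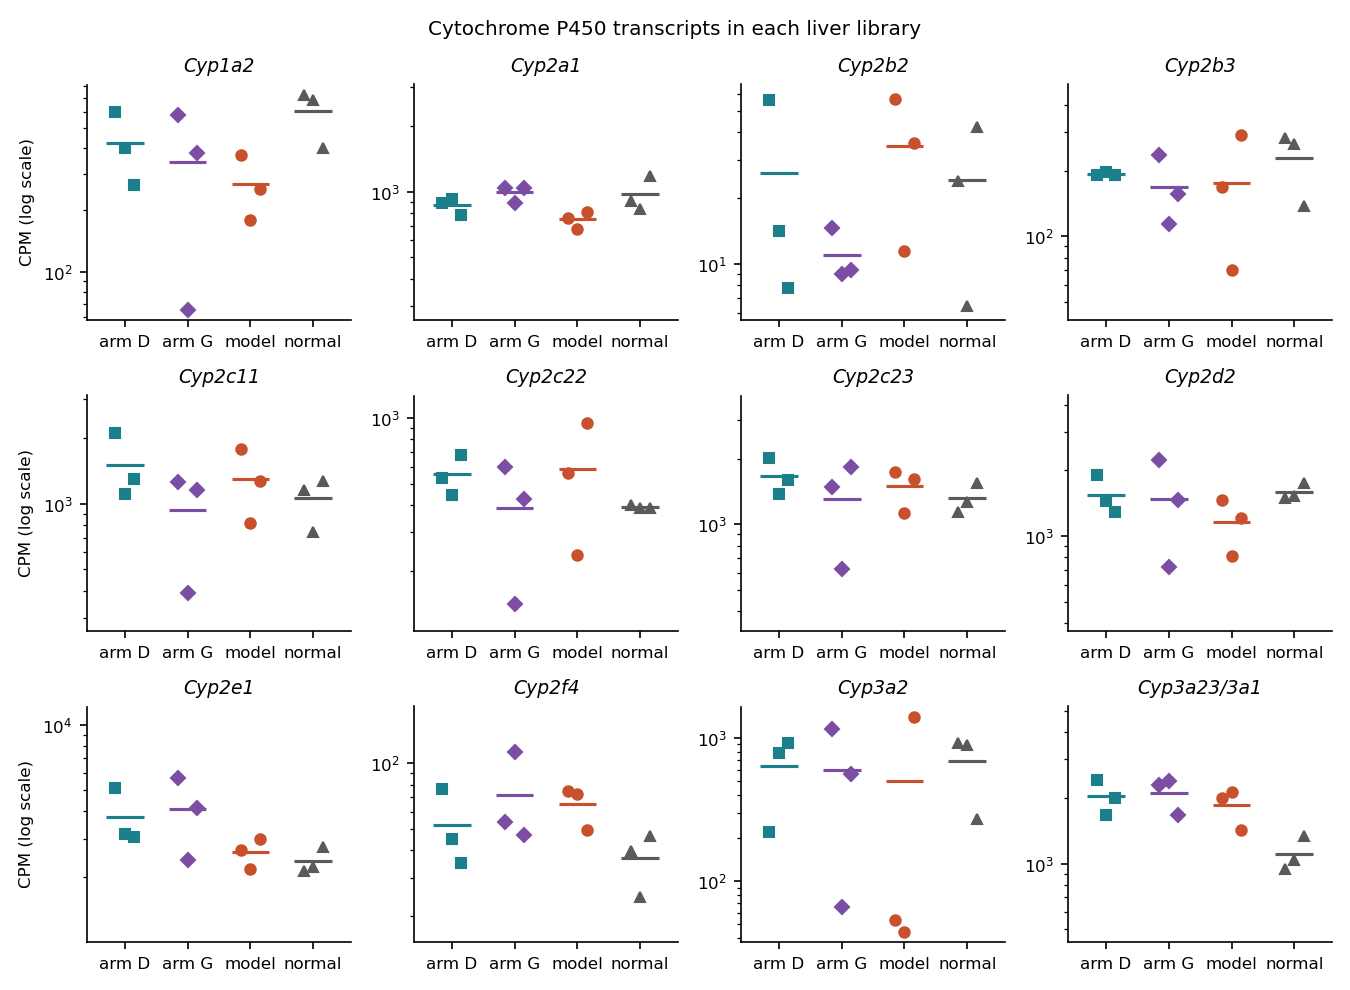
CPM of 12 members on log axes, with 1 point per library and a bar at the arithmetic mean of the 3 libraries of arm D, arm G, the model and normal livers. Cyp3a23/3a1 is higher in all 9 libraries of high-fat-fed rats, 1429 to 2413 CPM, than in normal livers, at 945 to 1339 CPM, and the model points of Cyp3a2 are split between 1393 CPM and about 50 CPM. The share of all tested genes with all 9 libraries above normal livers was not computed.

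The Cyp2c genes oxidise steroids, drugs and arachidonic acid, and none of them separated either arm from the model in CPM. As a share of the member reads, Cyp2c took 36.0%, 35.5% and 34.4% in arm D and 28.3%, 30.2% and 33.5% in arm G. It took 42.4%, 40.1% and 39.0% in the model and 37.7%, 34.3% and 39.9% in normal livers. On that measure, chosen after the values were seen and not tested, both arms lay below all model libraries. Cyp2c11, the male-specific testosterone hydroxylase of rat liver, had 2096, 1109 and 1299 CPM in arm D, 1254, 388 and 1156 CPM in arm G, 1785, 820 and 1275 CPM in the model, and 1158, 743 and 1271 CPM in normal livers. The lowest library was G.3, and its log2 fold change in arm D over normal livers was 0.51, and 0.19 without D.1 or 0.30 without N.2. Cyp2c13, also male-predominant, had 1881, 1600 and 998 CPM in arm D, 1489, 900 and 966 CPM in arm G, 1604, 830 and 1841 CPM in the model, and 1830, 1256 and 1820 CPM in normal livers. All 4 groups overlapped in both genes.

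Cyp2c23 makes epoxides of arachidonic acid and Cyp2c22 hydroxylates retinoic acid. Cyp2c23 had 2009, 1385 and 1600 CPM in arm D, 1484, 627 and 1829 CPM in arm G, 1740, 1132 and 1610 CPM in the model, and 1143, 1265 and 1539 CPM in normal livers. Cyp2c22 was narrow in normal livers and wide elsewhere, with 531, 447 and 680 CPM in arm D, 596, 141 and 426 CPM in arm G, 563, 235 and 954 CPM in the model, and 402, 386 and 389 CPM in normal livers. Arm D lay above normal livers in every library, whereas arm G and the model lay on both sides of them, with a log2 fold change of 0.57 in model over normal livers that was 0.020 without M2.1 and 0.95 without M.6. Cyp2c6v1 had 1457, 1300 and 938 CPM in arm D, 1544, 1298 and 1408 CPM in arm G, 1403, 1844 and 1021 CPM in the model, and 1333, 1539 and 1970 CPM in normal livers, with overlap throughout.

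Of the 48 counts of Cyp2c24, 43 fell in the normal libraries. It had 0, 0 and 0 counts in arm D, 0, 0 and 1 in arm G, 2, 0 and 2 in the model, and 12, 27 and 4 in normal livers, so all 9 libraries of high-fat-fed rats lay below the 3 normal ones. How many other genes did so was not computed. Taking 3 counts over the group as the limit that 0 counts allow, Cyp2c24 was at least 15.1-fold lower in arm D than in normal livers. That bound pools the 3 normal libraries, where N.2 held 27 of the 43 counts. It covers counting error only and not the spread between libraries. The ratio of arm G to normal livers was 0.0273, with a 95% counting interval from 0.000676 to 0.160 that covers counting error only. The gene fell short of the filter on low counts. Without that filter edgeR gave an adjusted p of 0.351 in arm D against normal livers, 0.780 in arm G against normal livers and 0.869 in model against normal livers. Cyp2c7, female-predominant in rat liver, had 3 counts in all, each of them in arm D.

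All 4 Cyp2d genes, the relatives of the human debrisoquine hydroxylase, had negative log2 fold changes in model over normal livers, between -0.94 and -0.46, which stayed below 0 under every alternative run (-1.58 to -0.24 with single libraries left out). All 10 hepatocyte markers were also negative in that comparison, with a median of -0.54. Of 9 tested markers each, those of periportal hepatocytes had 8 negative values (median -0.63) and those of pericentral hepatocytes 4 (median 0.04). As a share of the member reads, looked at after the levels had been seen, Cyp2d lay below all normal libraries in both arms and the model. The share was 12.1% to 18.3% there, against 18.6% to 20.3% in normal livers. A link of the markers to Cyp2d was not tested. In both arms over model the 4 Cyp2d log2 fold changes were positive, but leaving out M.5, M.6 or G.1 turned some of them, Cyp2d4 most often (lowest value -0.39 in arm G over model, without G.1). Cyp2d4, a member also known from brain, had 25.8, 20.4 and 22.9 CPM in arm D, 32.4, 13.3 and 16.8 CPM in arm G, 15.6, 9.63 and 33.4 CPM in the model, and 40.1, 33.8 and 39.0 CPM in normal livers. Each of the 9 libraries of high-fat-fed rats lay below the 3 normal libraries, with M2.1 closest to them. The share of all tested genes with this split was not computed. For Cyp2d4 the log2 fold change of model over normal livers was -0.94 ± 0.42 (SE; edgeR, unadjusted p = 0.0447, adjusted p = 0.866), -0.62 without M.6 and -1.58 without M2.1. Cyp2d1 had 1086, 834 and 911 CPM in arm D, 1251, 370 and 894 CPM in arm G, 764, 407 and 993 CPM in the model, and 1031, 1052 and 1075 CPM in normal livers. Cyp2d2 had 1901, 1457 and 1290 CPM in arm D, 2234, 724 and 1465 CPM in arm G, 1467, 808 and 1208 CPM in the model, and 1496, 1528 and 1751 CPM in normal livers. In both genes G.3 and M.6 were the lowest libraries and the model lay below normal livers without overlap. Cyp2d5 had 494, 430 and 329 CPM in arm D, 606, 232 and 448 CPM in arm G, 434, 277 and 193 CPM in the model, and 317, 463 and 474 CPM in normal livers, with overlap throughout. The sum of the 4 genes had an adjusted p of 0.866 in model against normal livers (edgeR).

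Cyp2a1, a female-predominant testosterone hydroxylase, varied least of the members. It had 888, 926 and 781 CPM in arm D, 1040, 890 and 1043 CPM in arm G, 758, 673 and 811 CPM in the model, and 905, 831 and 1184 CPM in normal livers. The model lay below all arm G and all normal libraries and overlapped arm D, and the log2 fold change of arm G over model was 0.41 ± 0.26 (SE; edgeR adjusted p = 0.9997).

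The remaining genes have roles in lipid and vitamin metabolism or are known mainly from other organs. Cyp2f4, a naphthalene-oxidising enzyme of lung, had 76.2, 45.2 and 35.1 CPM in arm D, 54.2, 113 and 47.2 CPM in arm G, 74.4, 72.2 and 49.4 CPM in the model, and 39.6, 24.5 and 46.3 CPM in normal livers. Its log2 fold change was 0.95 ± 0.40 in arm G over normal livers (SE; edgeR, unadjusted p = 0.0328, adjusted p = 0.723; 0.47 without G.3) and 0.83 ± 0.40 in model over normal livers (unadjusted p = 0.0575). It was higher where the mitochondrial share was higher (n = 12, r = 0.79 with permutation p = 0.000140 and adjusted p = 0.00350, rho = 0.83 with permutation p = 0.00137 and adjusted p = 0.00856, r = 0.79 without G.3 and M.6), and its highest library was G.3. Cyp2r1, a vitamin D hydroxylase of liver, had 2.20, 3.21 and 3.69 CPM in arm D, 5.05, 2.84 and 3.19 CPM in arm G, 2.03, 0.90 and 4.12 CPM in the model, and 6.47, 5.47 and 3.36 CPM in normal livers. Its log2 fold change in model over normal livers was -1.10 ± 0.50 (SE; edgeR, unadjusted p = 0.0496), -0.72 without M.6 and -1.80 without M2.1, and M2.1 lay inside the normal range. It was lowest in the library of highest mitochondrial share in 4 of 4 groups (n = 12, r = -0.63 with permutation p = 0.0407 and adjusted p = 0.0783, rho = -0.87 with permutation p = 0.000640 and adjusted p = 0.00856, r = -0.86 without G.3 and M.6).

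Cyp2j4, which oxidises arachidonic acid, had 76.0, 64.1 and 68.4 CPM in arm D, 95.8, 65.7 and 102 CPM in arm G, 72.3, 124 and 62.1 CPM in the model, and 76.5, 73.9 and 144 CPM in normal livers, with overlap throughout. Cyp2u1, a fatty acid hydroxylase, had 1.92, 0.86 and 2.18 CPM in arm D, 2.36, 1.81 and 1.18 CPM in arm G, 0.40, 0.99 and 4.28 CPM in the model, and 1.41, 1.14 and 2.76 CPM in normal livers. Cyp2t1 ranged from 25.2 to 47.6 CPM in arm D, from 30.1 to 31.8 CPM in arm G, from 22.9 to 49.9 CPM in the model and from 32.9 to 35.0 CPM in normal livers. Cyp2s1 had at most 1.92 CPM in arm D, 1.25 CPM in arm G, 1.98 CPM in the model and 2.46 CPM in normal livers.

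Across the 25 members, the relation to the mitochondrial share passed an adjusted permutation p of 0.05 for 9 on Pearson's r and for 4 on Spearman's rho, the 4 being Cyp2b3, Cyp2f4, Cyp2r1 and Cyp3a2. Several of the others rested on G.3 and M.6: without these libraries r was -0.04 in place of -0.83 for Cyp1a2, -0.30 in place of -0.92 for Cyp2d1 and -0.01 in place of -0.82 for Cyp2c22. The relation was computed for the 25 members alone, so the counts of 9 and 4 have no share over all tested genes beside them. Whether P450 genes differ from other genes in this relation was not tested. The part of the mitochondrial share in the differences between groups was not tested.

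Of 16 receptors and partners that control P450 genes, 15 were tested and 0 passed the adjusted threshold in any of the 3 comparisons with the model (edgeR). In arm D over model, 14 of 15 had log2 fold changes below 0 (median -0.34), with 1 unadjusted p under 0.05 (Ppara, the fatty acid receptor, lower). Of all tested genes in that comparison 46.7% had a positive value, the median was -0.04 and 6.28% had an unadjusted p under 0.05. In arm G over model the median was -0.22, with 2 unadjusted p under 0.05 (Cebpa and Onecut1, hepatocyte transcription factors, both lower), beside 2.32% of all tested genes. In model over normal livers the median was -0.04, with 1 higher (Nr1h4, the bile acid receptor) and 1 lower (Onecut1), beside 4.91% of all tested genes. The pregnane X receptor gene Nr1i2 had 86.9, 79.6 and 93.0 CPM in arm D, 119, 388 and 96.0 CPM in arm G, 131, 355 and 99.6 CPM in the model, and 97.9, 147 and 105 CPM in normal livers. Its levels in G.3 and M.6 were more than 2-fold those of any other library, and arm D lay below all model libraries. Its partner Rxra, named after its values were seen, had 26.3, 105 and 97.1 CPM in arm D, 93.6, 28.7 and 63.1 CPM in arm G, 22.0, 50.5 and 204 CPM in the model, and 179, 144 and 40.04 CPM in normal livers. Its lowest library was that of lowest Cyp3a2 in both arms and in normal livers, but not in the model, where Rxra was lowest in M.5 and Cyp3a2 in M.6. This pattern was not particular to Rxra. Tiparp and Hnf4a of the same list were lowest in the same libraries as Rxra. Arnt was lowest where Cyp3a2 was lowest in all 4 groups, with 3.48 CPM in D.1, 4.88 in G.3, 3.42 in M.6 and 7.68 in N.3. A link of these genes to Cyp3a2 was not tested.

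The 14 genes of electron supply and haem synthesis gave 0 adjusted calls in any of the same 3 comparisons (edgeR). Their median log2 fold change was -0.02 in arm D over model, -0.16 in arm G over model and 0.05 in model over normal livers. The 1 unadjusted p under 0.05 was that of Fech, which inserts iron into haem, in model over normal livers, beside 4.91% of all tested genes. Fech had 82.2, 52.8 and 59.2 CPM in arm D, 59.9, 61.3 and 68.2 CPM in arm G, 90.0, 87.5 and 71.4 CPM in the model, and 47.4, 49.8 and 55.9 CPM in normal livers. The model lay above all normal libraries. Por, the electron donor of all these enzymes, had 112, 87.7 and 99.7 CPM in arm D, 120, 67.4 and 116 CPM in arm G, 91.5, 140 and 108 CPM in the model, and 138, 160 and 128 CPM in normal livers, with all arm libraries below all normal ones.

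Markers of other cells were examined in the same fit, and 0 passed the adjusted threshold in any comparison (edgeR). The summed level of 12 Kupffer cell markers, all detected, was 626 to 1931 CPM in arm D, 409 to 931 CPM in arm G, 309 to 700 CPM in the model and 639 to 874 CPM in normal livers, and in arm D over model 11 of the 12 were higher at an unadjusted p under 0.05, beside 6.28% of all tested genes in either direction. The arm D and model sums overlapped. Of 9 sinusoidal endothelial markers 8 were measured, and their sum was 378 to 432 CPM in arm D, 259 to 361 CPM in arm G, 221 to 289 CPM in the model and 301 to 360 CPM in normal livers. Arm D lay above all model libraries, and 5 of the 8 were higher at an unadjusted p under 0.05, beside 6.28% of all tested genes in either direction. The sum of 9 lymphocyte markers was 36.6 to 57.4 CPM in arm D, 30.6 to 84.7 CPM in arm G, 23.9 to 45.9 CPM in the model and 20.5 to 29.1 CPM in normal livers. In arm G over normal livers 5 of the 8 tested were higher at an unadjusted p under 0.05, beside 6.59% of all tested genes in either direction. The sum of 9 stellate cell markers was 266 to 362 CPM in arm D, 238 to 314 CPM in arm G, 231 to 393 CPM in the model and 338 to 612 CPM in normal livers, and that of 6 cholangiocyte markers stayed between 13.1 and 42.4 CPM. The summed level of 9 markers of periportal hepatocytes, the zone that expresses less of most P450 genes, was 7971 to 9631 CPM in arm D, 6953 to 11559 CPM in arm G, 3861 to 9450 CPM in the model and 8415 to 14088 CPM in normal livers. That of 10 pericentral markers was 1535 to 1984 CPM in arm D, 1251 to 2055 CPM in arm G, 1360 to 2347 CPM in the model and 1594 to 1896 CPM in normal livers. At an unadjusted p under 0.05, 4 of the 9 periportal markers were lower in model over normal livers, beside 4.91% of all tested genes. In arm G over model 2 were higher (2.32%), and in arm D over model 0 passed (6.28%). Of the 9 pericentral markers tested, 1 was higher in model over normal livers, 1 in arm G over model and 0 in arm D over model. The part of the cell markers in the P450 values was not tested.

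In the authors' deposited table of each comparison, 0 members had an adjusted p under 0.05. The authors' deposited table of arm D over model gave Cyp2e1 the smallest adjusted p of the members, 0.767, with a log2 fold change of 0.52. In the authors' deposited table that runs normal over model, Cyp1a2 had the smallest adjusted p of the members, 0.273, with a log2 fold change of 1.17. In the same authors' deposited table, Cyp3a23/3a1 had a log2 fold change of -0.74 and an adjusted p of 0.505.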

How the data were processed

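Per the labels' protocols, liver RNA was isolated with Trizol and made into libraries with a kit of the NEBNext Ultra line. The authors deposited 3 tables of 6 libraries each, which set normal livers, arm D and arm G against the same 3 model libraries. From them the raw read count of each gene was taken, as named per the file headers. The authors' log2 fold change per gene, deposited in the same tables with its p-value before and after adjustment, is used only where named. DESeq2 and mm9, a mouse build, stand without versions per the submitters' processing notes. For the aligner, counter, annotation and use of strand: not given in the sources used here. The 36 other per-sample columns were not used.

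The tables were joined on gene name, and genes absent from a table were set to 0; 0 model counts differed between tables. Genes were kept by filterByExpr (12355 of 16558), scaled by TMM and tested with edgeR 4.0.16 in R 4.3.3, in 1 quasi-likelihood fit of all 12 libraries that had 4 group means, no covariates and 8 residual degrees of freedom. Values per library are TMM-scaled CPM. Benjamini-Hochberg adjustment ran over every tested gene, with a threshold of 0.05. The fit was tested on simulated counts. The relations with the mitochondrial share used 100000 permutations over all 12 libraries without regard to group, so differences between groups enter their p-values. Within groups, every pair of libraries differed by more than sampling noise (chi-square per degree of freedom 22.4 to 893). Alternatives were DESeq2 1.42.0, limma-voom (limma 3.58.1) with and without sample quality weights, other scalings and filters, only the groups compared, sums per subfamily, and libraries left out.

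The members and lists were chosen with earlier results of these data known. Genes were named if past the threshold, if at an unadjusted p under 0.05 (up to 5 per direction), if highest in their subfamily or if on a list of key members. Of that list, Cyp2a2, Cyp2b1, Cyp2c6, Cyp2d3, Cyp2j3, Cyp2j10, Cyp3a62 and Cyp3a73 are not analysed here.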

Additional observations from a re-analysis of the deposited data

How the results depend on the processing

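The count of members past the adjusted threshold was 0 under every alternative except limma-voom with sample quality weights, which called 1 member in arm D over normal livers. The median log2 fold change of the members always moved by less than the SD between libraries (0.35), but leaving out single libraries took it across 0 in every comparison except model over normal livers: -0.012 to 0.28 in arm D over model, -0.26 to 0.14 in arm G over model, -0.25 to 0.017 in arm D over normal livers, -0.47 to 0.018 in arm G over normal livers and -0.34 to 0.087 in arm G over arm D. Cyp3a2 had no stable direction: leaving out 1 library at a time gave log2 fold changes of -0.18 to 3.71 in arm D over model, -0.66 to 3.61 in arm G over model and -3.84 to 0.057 in model over normal livers, where the sign changed without M.5 (-0.17, -0.28 and 0.049), without M.6 (-0.18, -0.29 and 0.057) and, in arm G over model, without G.1 (-0.66). Without both M.6 and G.3 arm D over model was -0.15 and model over normal livers 0.058. Cyp1a2 in arm G over model was -0.13 by limma-voom and ranged from -0.26 to 0.86 as single libraries were left out. In arm G over model the same ranges were -0.19 to 0.58 for Cyp2d1, -0.088 to 0.68 for Cyp2d2 and -0.39 to 0.73 for Cyp2d4, with Cyp2d1 at -0.068 and Cyp2d4 at -0.23 without M.6 and Cyp2d4 at -0.050 without M.5. In arm D over model Cyp2d4 ranged from -0.093 to 0.87 and was -0.065 without both M.6 and G.3. The cause was not tested. No paired analysis was possible because the count columns carry numbers of their own and not the replicate numbers of the labels. With 3 libraries a group and the within-group variation of Cyp3a2, Cyp2b2 and Cyp1a2, changes of the size seen could not be separated from the spread between libraries, and the low nuclear depth of G.3 and M.6 limits the members of lowest count.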
